A study of Mus musculus with 20 samples.

Results

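The expression of 10 heat shock protein and chaperone genes in the mouse utricle was described across 4 groups of female mice. The genes were chosen by name, as *Hspa1a*, *Hspa1b*, *Hspa8*, *Hsph1*, *Dnajb1*, *Hsp90aa1*, *Hsp90ab1*, *Hspb1*, *Hspd1* and *Hspe1*, and all 10 were found among the 25655 genes of the deposited tables. C57BL/6J mice aged 8 weeks had their ovaries removed or underwent a sham operation, a pellet was placed under the skin, and the utricles were taken 4 weeks later. The sham + v group was sham-operated and the OVX + v group ovariectomized, both with a vehicle pellet. The OVX + E2 group was ovariectomized, and its pellet held 50 µg of estradiol for a 60-day release, and in the ovariectomized OVX + RAL group the 60-day pellet held 2.4 mg of raloxifene, a selective estrogen receptor modulator. Each group had 5 libraries, numbered 1 to 5 for sham + v, 6 to 10 for OVX + v, 11 to 15 for OVX + E2 and 16 to 20 for OVX + RAL. The study asked how estrogen deficiency and its treatment act on the utricle, an organ of balance of the inner ear. Whether a library came from 1 utricle, 1 animal or a pool is not given in the sources used here, so that p-values measure the spread between libraries.

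Heat shock proteins bind unfolded or partly folded proteins, keep them from aggregating and help them to fold. The Hsp70 proteins work through rounds of ATP hydrolysis that J-domain proteins start and nucleotide exchange factors end, Hsp90 completes the folding of client proteins that include the steroid hormone receptors, small heat shock proteins hold unfolded proteins without ATP, and Hsp60 with Hsp10 folds proteins inside mitochondria. Under heat or oxidative stress, heat shock factor binds repeats of a short DNA element and raises the transcription of many of these genes, and in the utricle Hsp70 is known for the protection of sensory hair cells.

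Depth ranged from 1123053 to 2081747 counts per library. The lowest totals were in the OVX + E2 group (median 1324047) and the highest in the OVX + RAL group (median 1906110). Genes with a count numbered from 7427 to 10694, with the fewest in libraries 14 and 13 of the OVX + E2 group. Values are given as CPM, the count of a gene scaled to 1000000 counts of the library, and where 4 values follow each other for the groups they stand in the order sham + v, then OVX + v, then OVX + E2, then OVX + RAL. The library kit reads the 3′ ends of mRNA, so that counts do not grow with transcript length. As a check of the tissue, all 9 hair cell markers examined and all 8 markers of supporting and otolithic membrane cells were detected, with summed levels of 512 to 1709 CPM and 1637 to 4966 CPM, respectively. Summed markers of other tissue varied between libraries, from 363 to 3837 CPM for blood, 1809 to 4589 CPM for Schwann cells, 328 to 1546 CPM for melanocytes, 2.67 to 223 CPM for macrophages, 0 to 1738 CPM for mucosal secretory cells, 1.13 to 359 CPM for bone and 0 to 279 CPM for skeletal muscle, and their part in the results was not tested. In bulk tissue, fewer cells of a type and less RNA per cell cannot be told apart.

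The DNA around the starts of 2 pairs of members is shown first, a pair with near-identical promoters and a pair that shares 1 promoter region. *Hspa1a* (chromosome 17, 35188166 to 35191132, minus strand) and *Hspa1b* (chromosome 17, 35175412 to 35178214, minus strand) encode the inducible Hsp70 proteins, have a single exon each, and lie 9951 bases apart. The 250 bases before their starts, read from the GRCm39 genome and printed here 5′ to 3′ on the minus strand at chr17:35191133-35191382 and chr17:35178215-35178464, were 98.8% identical. The capitals mark the 3 positions at which they differ.
Hspa1a: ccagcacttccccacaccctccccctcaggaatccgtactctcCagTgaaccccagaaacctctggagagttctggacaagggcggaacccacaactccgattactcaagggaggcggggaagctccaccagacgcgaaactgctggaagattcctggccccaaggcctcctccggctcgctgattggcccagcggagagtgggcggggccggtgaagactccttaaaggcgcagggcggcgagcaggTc
Hspa1b: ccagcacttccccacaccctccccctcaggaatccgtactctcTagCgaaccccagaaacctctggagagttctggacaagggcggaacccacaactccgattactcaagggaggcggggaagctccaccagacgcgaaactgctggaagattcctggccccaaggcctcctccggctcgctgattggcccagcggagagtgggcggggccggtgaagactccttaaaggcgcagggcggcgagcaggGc
The transcripts share a stretch of 638 bases, but in their last 400 bases, where the reads of this kit should fall, the longest shared stretch was 10 bases. For reads that fall there, the counts of *Hspa1a* and *Hspa1b* can be read as those of 2 genes. The positions of the reads were not examined, and the counts were also summed.

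*Hspd1* (Hsp60, chromosome 1, 55116994 to 55127402, minus strand) and *Hspe1* (Hsp10, its lid, chromosome 1, 55127291 to 55130466, plus strand) are transcribed away from each other. Their canonical transcripts start 107 bases apart, and in the tables the genes overlap by 112 bases. The stretch between the starts, at chr1:55127184-55127290 of GRCm39 on the plus strand, holds the only match to the heat shock element found in the 10 promoters, an array of 18 bases at 55127218 to 55127235 that is set in capitals.
Hspd1 to Hspe1: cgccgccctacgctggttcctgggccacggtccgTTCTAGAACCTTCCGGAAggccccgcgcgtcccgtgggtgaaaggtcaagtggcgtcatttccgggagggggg
This array, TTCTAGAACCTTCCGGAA, lies 34 bases from the start of *Hspd1* and 55 bases from that of *Hspe1*. The element was searched as GAANNTTCNNGAA on both strands from 250 bases before to 50 bases after each start, and the array gave 2 overlapping matches in each window. Of 21769 promoters of the same length, 104 (0.478%) held a match. The full palindrome of an estrogen response element, AGGTCANNNTGACCT, was in 0 of the 10 windows and in 0.0184% of all promoters. The letters of a TATA box (TATAAA) were in 0 of the 10 windows (13.2% of all promoters), ATTGG was in 7 (39.9%) and GGGCGG in 10 (42.5%). A missing match says only that these letters are absent from this window.

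Levels of the members, in CPM of 3′ reads and so without a correction for length, differed widely. *Hsp90ab1*, the constitutive Hsp90, was the highest with 3796 ± 668 CPM over the 20 libraries (mean ± SD), followed by *Hspb1* (1739 ± 875), *Hsp90aa1* (1513 ± 309.97) and *Hspa8* (1220.5 ± 252). *Hspe1* (255 ± 177), *Hspd1* (171 ± 61.3), *Hsph1* (132 ± 61.0) and *Dnajb1* (73.0 ± 57.2) were lower. The inducible *Hspa1b* (62.6 ± 47.7) and *Hspa1a* (61.5 ± 54.3) were the lowest. Together the 10 genes took 0.638% to 1.25% of a library's counts.

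**Figure D1:**
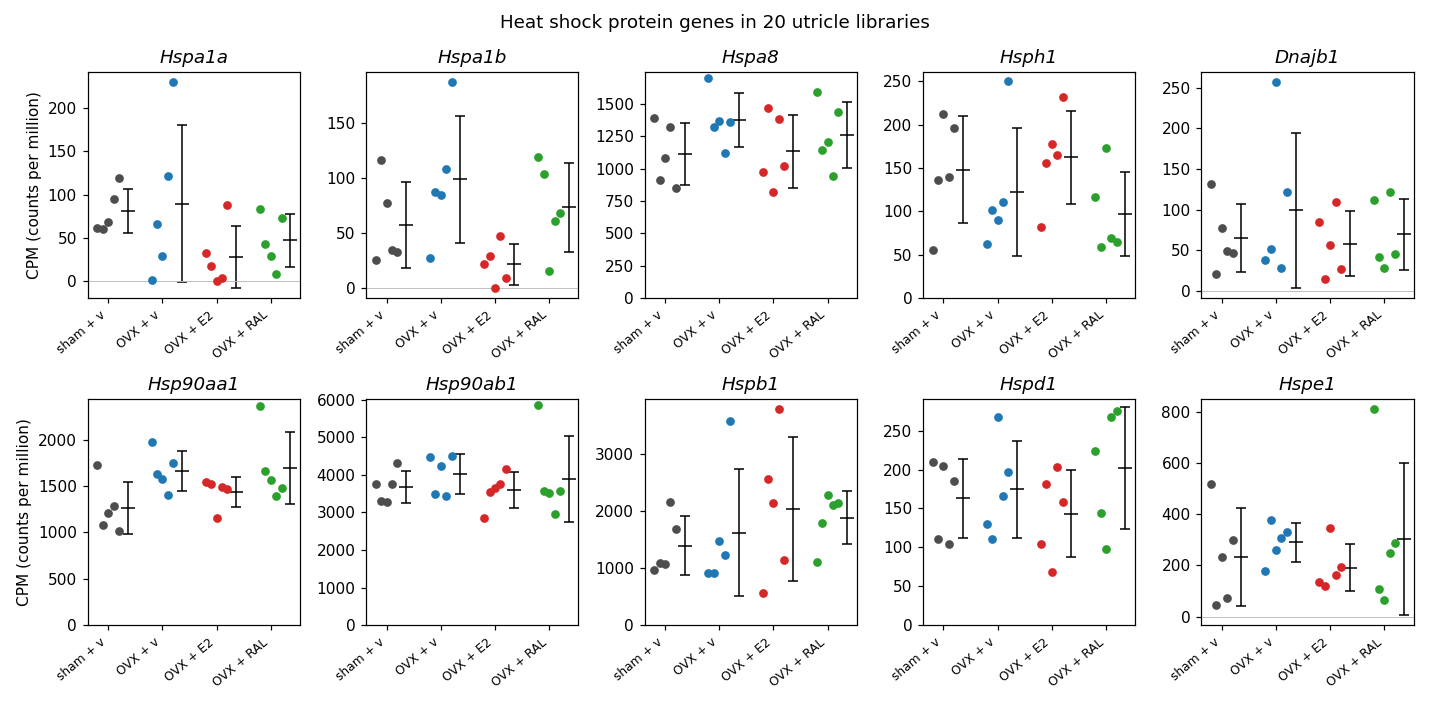
CPM of each of the 10 genes (y axis, from 0, a scale of its own in each panel) in the 4 groups (x axis), with 1 point per library in order of library number and the mean ± SD of 5 libraries in black. The points of the groups overlap in every panel, and library 16 of the OVX + RAL group stands above the others for *Hsp90aa1*, *Hsp90ab1* and *Hspe1*.

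Between groups, none of the 10 genes passed an adjusted p of 0.05 in any of 4 comparisons or in a test of any difference among the 4 groups (the quasi-likelihood test of edgeR, with p-values adjusted over all genes tested). The share of all genes tested that passed was 0.0145% for sham + v against OVX + v, 0.0584% for OVX + E2 against OVX + v, 0.0286% for OVX + RAL against OVX + v, 0.0727% for OVX + E2 against OVX + RAL and 0.141% for any difference. DESeq2 and limma also called 0 of the 10 in each of them. In each comparison 0 of the 10 genes had groups without overlap, against 0.499%, 0.832%, 0.578% and 0.909% of all genes, in the same order. At an unadjusted p under 0.05, edgeR gave 1 of 10 for sham + v (all genes 12.5%), 2 for OVX + E2 (13.9%), 0 for OVX + RAL (12.1%) and 0 for OVX + E2 against OVX + RAL (14.1%). Among the 3661 genes with a mean of at least 50 CPM, as all 10 members had, these shares were 3.17%, 3.22%, 3.58% and 3.28%. For any difference edgeR gave 1 of 10, against 16.3% of all genes and 2.95% of the genes with at least 50 CPM. The fitted spread of edgeR followed the level of a gene far more than its own replicates here, so each member was also compared by an exact permutation test on log2(CPM + 1) over the 252 groupings of 5 and 5 libraries, two-sided, with a smallest possible p of 0.00794 (unadjusted). The 95% intervals below are the differences which that test does not reject. Of 40 such tests of members, 2 had an unadjusted p under 0.05, 1 of 10 each for sham + v and OVX + E2 against OVX + v, and 0 in the other comparisons. Over the 3661 genes the same test gave 4.73% for sham + v, 5.57% for OVX + E2, 5.19% for OVX + RAL and 5.95% for OVX + E2 against OVX + RAL, so that 2 of 40 is near the background. With each library left out in turn, 20 of 400 exact tests had an unadjusted p under 0.05, 9 of them for the same 2 differences. These tests reuse the libraries of the full tests, and their share over all genes was not computed, so that they add no support.

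Between OVX + E2 and OVX + v, the inducible Hsp70 genes had the largest log2 differences among the members. *Hspa1b* had 25.3, 117, 77.0, 34.1 and 32.5 CPM in sham + v libraries 1 to 5, and 27.4, 87.2, 84.5, 108 and 187 CPM in OVX + v libraries 6 to 10. In OVX + E2 libraries 11 to 15 it had 21.2, 28.7, 0, 47.2 and 8.42 CPM, and in OVX + RAL libraries 16 to 20 it had 119, 104, 15.3, 60.3 and 68.2 CPM. Of the OVX + v libraries, 4 stood above every OVX + E2 library, and library 6 lay within their range. The means were 98.9 ± 57.8 CPM in the OVX + v group and 21.1 ± 18.3 CPM in the OVX + E2 group (SD, n = 5). The edgeR log2 fold change was -2.23 (standard error 0.993, adjusted p = 0.351, edgeR). On log2(CPM + 1) the difference was -2.77 (95% interval -5.39 to -0.56, exact permutation test, p = 0.0238, unadjusted). Without library 13 it was -1.86 (exact permutation test, p = 0.0317, 126 groupings), and without library 7, 8, 9 or 10 the exact p was 0.0556 each. The difference of OVX + E2 from OVX + RAL was -2.30 (95% interval -4.89 to 0.05, exact permutation test, p = 0.0556). On log2 values over the 20 libraries, *Hspa1b* had a Pearson's r of 0.48 with total counts (permutation p = 0.0328). With the number of genes with a count r was 0.51 (permutation p = 0.0275). Both had an adjusted p of 0.173, adjusted as for *Hsph1* below. Without the 2 libraries of most extreme *Hspa1b* r was 0.23 and 0.27, and Spearman's rho was 0.41 and 0.19. Totals and gene numbers were lowest in OVX + E2, and their part in the difference was not tested.

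*Hspa1a* had 61.9, 59.8, 68.7, 94.5 and 119 CPM in the sham + v libraries, and 1.87, 66.5, 28.9, 121 and 229 CPM in the OVX + v libraries. In the OVX + E2 group it had 32.5, 17.4, 0, 4.45 and 87.7 CPM, and in the OVX + RAL group 82.8, 43.6, 29.4, 8.39 and 73.0 CPM. The OVX + v group thus held both the highest library, 10, and a library with 3 counts, 6. The difference of OVX + E2 from OVX + v was -1.82 (95% interval -5.40 to 1.96, exact permutation test, p = 0.270). Without single libraries it ran from -2.80 without library 6 (exact permutation p = 0.0794) to -0.91 without library 13 (exact permutation p = 0.532). The difference of sham + v from OVX + v was 0.84 (-1.34 to 3.52, exact permutation test, p = 0.611), where edgeR on the counts gave a log2 fold change of -0.15. Library 13 of the OVX + E2 group had 0 counts of both genes among 1247585 counts, which allows up to 2.40 CPM of each (3 counts, counting error only). Summed, the 2 genes had 138 ± 33.1, 188 ± 147, 49.5 ± 34.1 and 121 ± 63.6 CPM in the 4 groups (SD, n = 5). For the sum, the edgeR log2 fold change of OVX + E2 against OVX + v was -1.93 (standard error 0.619, p = 0.00187, adjusted p = 0.352, edgeR), and the exact permutation test gave p = 0.0794, with 0.0159 without library 6, 0.0397 without library 15 and up to 0.198 without other single libraries. Against OVX + v, the sum had an edgeR log2 fold change of -0.45 in sham + v, which turned to 0.07 without library 10. On log2 values over the 20 libraries, the sum had a Pearson's r of 0.49 with total counts (permutation p = 0.0285). With the number of genes with a count, its r was 0.55 (permutation p = 0.0175). For *Hspa1a* these r were 0.46 (permutation p = 0.0409) and 0.47 (permutation p = 0.0347). Each r had an adjusted p of 0.173. Spearman's rho was 0.40 and 0.13 for the sum, and 0.29 and 0.036 for *Hspa1a*. With the summed Schwann cell markers, whose median was highest in OVX + E2, r was -0.46 for *Hspa1a* (permutation p = 0.0394). It was -0.44 for the sum (permutation p = 0.0370), both with an adjusted p of 0.173. For *Hspa1b* it was -0.33 (permutation p = 0.163, adjusted p = 0.375). The part of depth, gene number and Schwann cell markers in these values was not tested.

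*Hspa8*, the constitutive Hsp70 of the cytosol, varied far less. Its means were 1111 ± 241, 1375 ± 209.5, 1133 ± 280.2 and 1262 ± 255 CPM in the 4 groups (SD, n = 5). Its libraries ranged from 818 CPM (library 13) to 1704 CPM (library 6). Relative to OVX + v, the differences on log2(CPM + 1) were -0.32 in sham + v (95% interval -0.68 to 0.07), -0.30 in OVX + E2 (-0.74 to 0.15) and -0.14 in OVX + RAL (-0.54 to 0.26), with exact permutation p of 0.0952, 0.151 and 0.460. In linear terms these intervals run from 0.598-fold to 1.20-fold. Of 338 windows of 63 bases in the last 400 bases of *Hspa8*, 256 (75.7%) also occur in at least 1 of 10 other annotated transcripts of the same orientation, most of them processed pseudogenes. Reads were mapped with the defaults of the software, and how these treat reads that match several places is not given in the sources used here, so that the level of *Hspa8* is uncertain.

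Partners of Hsp70 were measured at lower CPM. *Hsph1* (Hsp110, a nucleotide exchange factor of Hsp70) had 148 ± 61.7, 123 ± 73.9, 163 ± 53.6 and 96.5 ± 48.5 CPM in the 4 groups (SD, n = 5). It was 1 of 2 members with the highest mean in OVX + E2, where its libraries had 82.2, 156, 178, 165 and 231 CPM, while those of OVX + RAL had 117, 58.7, 173, 69.3 and 64.8 CPM. The groups overlapped, and the difference of OVX + E2 from OVX + RAL was 0.80 on log2(CPM + 1) (95% interval -0.14 to 1.64, exact permutation test, p = 0.0714). Over the 20 libraries *Hsph1*, as log2(CPM + 1), went with lower depth. Spearman's rho with total counts was -0.62 (permutation p = 0.00490, adjusted p = 0.169). Pearson's r was -0.58 (permutation p = 0.00790, adjusted p = 0.173), and -0.51 without the 2 libraries of most extreme *Hsph1*. These p-values were adjusted over 55 relations with depth, number of genes, immediate early genes and marker sums. The OVX + E2 libraries were the shallowest group, and the part of depth in the values of *Hsph1* was not tested. The summed level of 5 Schwann cell markers, which had medians of 2281, 2888, 4110.1 and 2267 CPM in the 4 groups, was also highest in OVX + E2. Its relation to *Hsph1* had a rho of 0.42 (permutation p = 0.0680, adjusted p = 0.404) and an r of 0.42 (permutation p = 0.0656, adjusted p = 0.241, and 0.30 without the 2 extremes), and its part in the difference was not tested. Without each library in turn, the exact permutation p for *Hsph1* between OVX + E2 and OVX + RAL ran from 0.0317 to 0.159. It was under 0.05 in 2 of 10 cases. Without library 11, the lowest of OVX + E2, the difference was 1.02 (exact permutation p = 0.0476). Without library 18, the highest of OVX + RAL, it was 1.04 (exact permutation p = 0.0317). *Dnajb1*, the J-domain protein that starts the cycle of Hsp70, had 65.2 ± 41.9, 99.3 ± 95.4, 58.2 ± 39.5 and 69.4 ± 43.5 CPM in the 4 groups. Its highest library was library 8 of OVX + v (257 CPM) and its lowest library 12 of OVX + E2 (14.3 CPM). The intervals of its differences from OVX + v reached from -2.36 to 1.32 in sham + v, from -2.49 to 1.23 in OVX + E2 and from -2.10 to 1.52 in OVX + RAL on the log2 scale, so that each held a 2-fold change in both directions. With the summed hair cell markers, *Dnajb1* had an r of -0.55 (permutation p = 0.0112, adjusted p = 0.173). The rho was -0.43 (permutation p = 0.0616, adjusted p = 0.404), and the part of these markers in its values was not tested.

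*Hsp90aa1*, the inducible cytosolic Hsp90, had 1724, 1077, 1204, 1279 and 1019 CPM in the sham + v libraries and 1972, 1624, 1570.1, 1398 and 1749.6 CPM in the OVX + v libraries. In the OVX + E2 group it had 1544, 1517, 1155, 1492 and 1462 CPM, and in the OVX + RAL group 2366, 1663, 1569, 1394 and 1480.5 CPM. All sham + v libraries but library 1 lay below every OVX + v library. The mean of sham + v was 1260.3 ± 278 CPM and that of OVX + v 1663 ± 214 CPM (SD, n = 5). The edgeR log2 fold change was -0.40 (standard error 0.184, adjusted p = 0.363, edgeR). On log2(CPM + 1) the difference was -0.42 (95% interval -0.75 to -0.03, exact permutation test, p = 0.0397, unadjusted). Without each library in turn the exact p ran from 0.0159 to 0.0794 and was under 0.05 in 3 of 10 cases, those without libraries 1, 8 and 9. The difference of OVX + E2 (1434 ± 159 CPM) from OVX + v was -0.21 (95% interval -0.48 to 0.03, exact permutation test, p = 0.0952). Without each library in turn its exact permutation p ran from 0.00794 to 0.206 and was under 0.05 in 1 of 10 cases. The difference was -0.27 without library 9 (exact permutation p = 0.00794) and -0.14 without library 13 (exact permutation p = 0.206). The difference of OVX + RAL (1695 ± 389 CPM) from OVX + v was 0.01 (-0.32 to 0.39, exact permutation test, p = 0.944). The genes with a count numbered 8651 to 10625 in sham + v and 10004 to 10694 in OVX + v, and over the 20 libraries *Hsp90aa1* went with that number (rho 0.56, permutation p = 0.0108; r 0.47, permutation p = 0.0379, and 0.45 without the 2 most extreme libraries; adjusted p = 0.198 and 0.173 over the 55 relations). Its part in the difference was not tested.

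*Hsp90ab1* had the lowest coefficient of variation of the members over the 20 libraries (17.6%), and 11.6% to 29.1% between the replicates of a group. Its means were 3681 ± 428, 4025 ± 530.2, 3587 ± 476 and 3889.8 ± 1133 CPM in the 4 groups (SD, n = 5). The largest spread came from library 16, with 5861 CPM against 2946 to 3576 CPM in the other OVX + RAL libraries. Its differences from OVX + v on log2(CPM + 1) were -0.13 in sham + v (95% interval -0.41 to 0.12), -0.17 in OVX + E2 (-0.46 to 0.13) and -0.08 in OVX + RAL (-0.46 to 0.39), with exact permutation p of 0.302, 0.246 and 0.722. These intervals allow at most 0.727-fold to 1.31-fold. Of the last 400 bases of *Hsp90ab1*, 39.9% of the windows lie on the opposite strand of *Slc35b2*, and whether the counting used strand is not given in the sources used here.

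*Hspb1* (Hsp25 of the mouse, a small heat shock protein) had 967, 1098, 1071, 2158 and 1697 CPM in the sham + v libraries, and 918, 908, 1484, 1240.2 and 3582 CPM in the OVX + v libraries. In the OVX + E2 group it had 559, 2570.2, 2140.1, 3806 and 1145 CPM, and in the OVX + RAL group 1118, 1792, 2285, 2102 and 2148 CPM. The highest and the lowest of the 20 libraries were thus both in OVX + E2. The edgeR log2 fold change of OVX + E2 against OVX + v was 0.33 (standard error 0.160, p = 0.0393, adjusted p = 0.351, edgeR), but the difference on log2(CPM + 1) was 0.26 (95% interval -1.17 to 1.56, exact permutation test, p = 0.675). The edgeR value turned on single libraries. Without library 10 of OVX + v it was 0.85 (adjusted p = 0.00783, edgeR), and without library 14 of OVX + E2 it was -0.02. *Hspb1* also had the smallest p of the members for any difference among the 4 groups (adjusted p = 0.134, edgeR). The replicate variation of *Hspb1* was 14.8 to 35.3 times what counting alone gives, a ratio that grows with the count of a gene. It was the highest of the 10 genes in sham + v, OVX + v and OVX + E2, while in OVX + RAL those of *Hsp90ab1* (25.1) and *Hspe1* (23.8) were higher. Of its windows 39.3% also occur in the processed pseudogene *Hsp25-ps1*. With the summed hair cell markers over the 20 libraries, *Hspb1* had an r of -0.47 (permutation p = 0.0355, adjusted p = 0.173). The rho was -0.45 (permutation p = 0.0479, adjusted p = 0.404), and the part of these markers in its values was not tested.

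The mitochondrial pair shares a promoter region, and *Hspe1* had a higher coefficient of variation between replicates (25.9% to 97.8%) than *Hspd1* (31.4% to 38.9%) in 3 of the 4 groups. *Hspd1* had 163 ± 51.1, 174 ± 61.9, 143 ± 55.7 and 202 ± 78.0 CPM in the 4 groups (SD, n = 5). Its differences from OVX + v were -0.09 (95% interval -0.81 to 0.69), -0.32 (-1.27 to 0.50) and 0.18 (-0.75 to 1.04) on log2(CPM + 1), with exact permutation p of 0.786, 0.405 and 0.611. Its lowest library was library 13 (68.1 CPM) and its highest library 20 (275 CPM). *Hspe1* had 517, 44.1, 234, 71.0 and 297 CPM in the sham + v libraries, 179, 378, 259.6, 305 and 329 CPM in the OVX + v libraries, 137, 119, 345, 163 and 194 CPM in the OVX + E2 libraries and 809, 109, 65.2, 249.7 and 286 CPM in the OVX + RAL libraries. All groups overlapped, with the difference of OVX + E2 from OVX + v at -0.66 (95% interval -1.35 to 0.13, exact permutation test, p = 0.0952). In sham + v and OVX + RAL the differences were -0.79 (-2.53 to 0.72) and -0.42 (-1.97 to 1.09), with exact permutation p of 0.325 and 0.516. Without single libraries the difference ranged from -1.20 to -0.32 in sham + v. In OVX + E2 it ranged from -0.90 to -0.52, with exact permutation p from 0.0238 to 0.167 and under 0.05 in 2 of 10 cases. These were -0.90 without library 13 (exact permutation p = 0.0238) and -0.82 without library 6 (exact permutation p = 0.0476). In the edgeR fit of OVX + RAL the log2 fold change of *Hspe1* was 0.07, and -0.71 without library 16. No values of windows shared with other transcripts are given for the 3′ end of *Hspe1*. As the handling of reads that match several places is not known, its level is uncertain as well.

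The plot of differences shows the 10 genes side by side. By the edgeR log2 fold change against OVX + v, 1 member was higher and 9 lower in sham + v. In OVX + E2 2 were higher and 8 lower, and in OVX + RAL 4 were higher and 6 lower. Of all genes tested, 51.0%, 52.5% and 51.7% were lower. On log2(CPM + 1), 2 of these signs differed, with *Hspa1a* higher in sham + v (0.84) and *Hspe1* lower in OVX + RAL (-0.42). The median edgeR log2 fold changes of the members were -0.26, -0.28 and -0.09. The medians of all genes tested were -0.02, -0.06 and -0.03. These 3 comparisons share the OVX + v libraries, so that a high or low OVX + v value enters all of them. Between OVX + E2 and OVX + RAL, whose libraries also enter the comparisons above, 2 members were higher and 8 lower in OVX + E2 by edgeR. Their median was -0.25, against -0.01 over all genes, of which 50.5% were lower. On log2(CPM + 1), *Hspb1* was lower as well (-0.12). TMM normalization moved the median of all genes by -0.11 for OVX + E2 against OVX + v and by -0.14 for OVX + E2 against OVX + RAL. It put 5 members higher and 5 lower in OVX + RAL against OVX + v, and 1 higher and 9 lower in OVX + E2 against OVX + RAL.

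**Figure D2:**
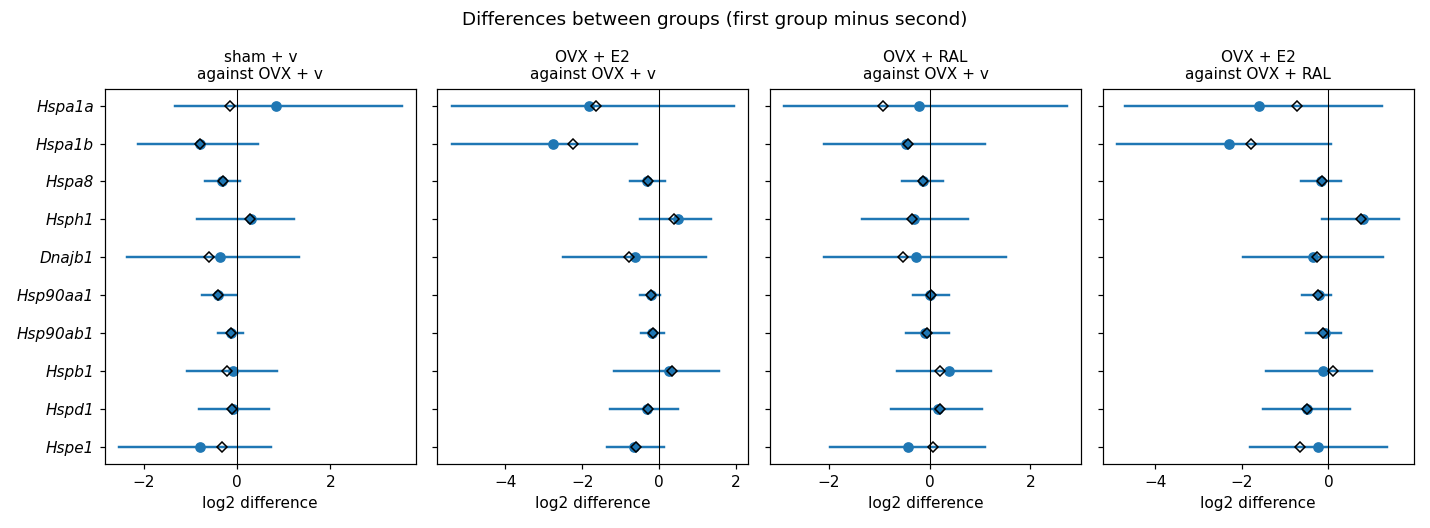
Differences of the 10 genes in the 4 comparisons, as first group minus second on a log2 scale (x axis, its own range in each panel). Blue points and lines give the difference of the means of log2(CPM + 1) with the 95% interval of the exact permutation test, and open diamonds the log2 fold change of edgeR. The intervals leave out 0 for *Hspa1b* in OVX + E2 and for *Hsp90aa1* in sham + v, both against OVX + v, and for no other gene.

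By the order of group means, OVX + v was the highest for 5 members (*Hspa1a*, *Hspa1b*, *Hspa8*, *Hsp90ab1* and *Dnajb1*) and OVX + RAL for 3 (*Hsp90aa1*, *Hspd1* and *Hspe1*), and OVX + E2 for *Hspb1* and *Hsph1*. Of the 3661 genes with a mean of at least 50 CPM, OVX + v was highest for 22.1%, OVX + RAL for 20.8%, OVX + E2 for 31.1% and sham + v, which was highest for 0 members, for 26.0%. OVX + E2 was the lowest for 6 members (*Hspa1a*, *Hspa1b*, *Hsp90ab1*, *Dnajb1*, *Hspd1* and *Hspe1*), and for 27.8% of those genes. For *Hspa8*, *Hsp90aa1* and *Hspb1* sham + v was the lowest (25.5% of those genes), for *Hsph1* OVX + RAL (24.97%), and for 0 members OVX + v (21.8%). As no member passed the test of any difference, no neighbors in these orders were shown to differ.

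Some libraries were the highest or lowest of the 20 in more than 1 member. The share of all genes for which each library was so was not computed. Library 10 had the highest *Hspa1a*, *Hspa1b* and *Hsph1* of all 20 libraries, and library 16 the highest *Hsp90aa1*, *Hsp90ab1* and *Hspe1*. Library 11 had the lowest *Hsp90ab1* and *Hspb1*. Library 13 had the lowest *Hspa1a*, *Hspa1b*, *Hspa8* and *Hspd1*. It was also 1 of the 2 libraries with the fewest genes, and the part of library quality in its values was not tested.

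Across the 20 libraries, 45 pairs of members were correlated on log2(CPM + 1), and 32 had a positive Spearman's rho, with a median of 0.19. All pairs share the library totals that scale the CPM. *Hspa8* and *Hsp90aa1* were the only pair past an adjusted p of 0.05, with a rho of 0.74 (permutation p = 0.00029, adjusted p = 0.0130) and a Pearson's r of 0.77 (permutation p = 6e-05, adjusted p = 0.00270). The r was 0.68 without the 2 libraries farthest from the median and 0.76 within groups, after the group means were removed. *Hspa1a* and *Hspa1b*, with their near-identical promoters, had a rho of 0.43 (permutation p = 0.0582, adjusted p = 0.386), and their r of 0.61 (permutation p = 0.00774, adjusted p = 0.127) fell to 0.23 without the 2 most extreme libraries, on which it rests. *Hspd1* and *Hspe1*, with the shared heat shock element, had a rho of 0.41 (permutation p = 0.0749, adjusted p = 0.386) and an r of 0.44 (permutation p = 0.0502, adjusted p = 0.251, and 0.57 without the 2 extremes). The most negative rho was that of *Hsp90aa1* and *Hsph1* (-0.41, permutation p = 0.0763, adjusted p = 0.386).

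**Figure D3:**
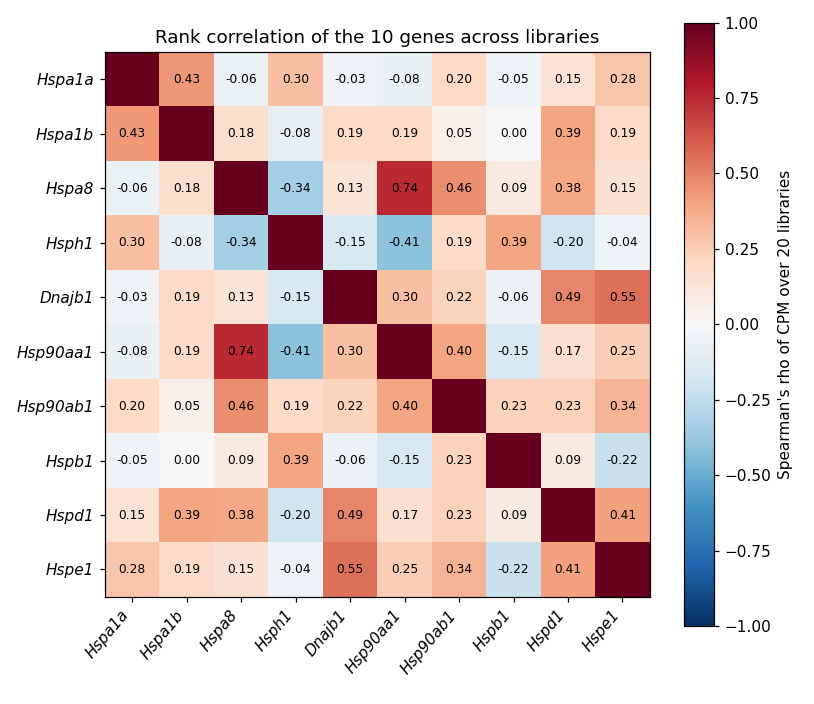
Spearman's rho between the CPM of each pair of the 10 genes over the 20 libraries (both axes list the genes, and color gives rho from -1 to 1). The pair of *Hspa8* and *Hsp90aa1* (0.74) has the highest value, and the median of the 45 pairs is 0.19.

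The genes whose levels were most like those of each member were ranked by rho among the 3661 genes with a mean of at least 50 CPM, as a description. No background was computed for the highest of so many values over 20 libraries, so that no shared program is read from them. For *Hspa8* they were *Xbp1* (0.78), *Hsp90aa1* (0.74) and *Cdkn1c* (0.72), and for *Hsp90aa1* they were *Clu* (0.75), *Gpm6a* (0.75) and *Hspa8* (0.74). For *Hspa1a* they were *G3bp1* (0.80), *Psma4* (0.71) and *Pde6d* (0.67), and for *Hspa1b* they were *Pgpep1* (0.73), *Armcx3* (0.70) and *Rpl10a* (0.68). *Hsp90ab1* was nearest to *Arpc1a* (0.76), *Msrb3* (0.76) and *Col1a2* (0.67), and *Hspb1* to *Gnai2* (0.76), *Rps14* (0.73) and *Sod3* (0.71). *Dnajb1* was nearest to *Ift20* (0.68), *Tmem9b* (0.64) and *Luc7l3* (0.62), and *Hsph1* to *Aak1* (0.70), *Adgrg6* (0.69) and *Furin* (0.68). *Hspd1* was nearest to *Cyb5a* (0.68), *Rpl31* (0.67) and *Mbtps1* (0.65), and *Hspe1* to *Adgrl1* (0.75), *Rcn2* (0.71) and *Cops7b* (0.70). Only *Hspa8* and *Hsp90aa1* had another member among their nearest 3.

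Other chaperones were taken from 9 lists by role. None of the 98, 97, 96 and 96 genes tested passed an adjusted p of 0.05 in sham + v, OVX + E2 and OVX + RAL against OVX + v and in OVX + E2 against OVX + RAL, by edgeR, DESeq2 or limma. At an unadjusted p under 0.05, edgeR gave 0, 0, 0 and 3 of them. These 3 were 3.125% of the genes tested, no larger a share than the 14.1% of all genes or the 3.28% of genes with at least 50 CPM. The 3 genes are named here after their values were seen. *Hspa12b*, an Hsp70-related protein of endothelial cells, had 0 counts in all 5 OVX + E2 libraries. Its log2 fold change was -6.26 (standard error 3.13, adjusted p = 0.353, edgeR). It passed the filter of 10 summed counts only through its OVX + RAL counts, so that its p gives no support for a difference. *Dnaja3*, a mitochondrial J-domain protein, had a log2 fold change of 2.77 (adjusted p = 0.353, edgeR). *Hspa5*, the Hsp70 of the endoplasmic reticulum, had -0.41 (adjusted p = 0.353, edgeR). The median log2 fold changes of these genes were -0.05, 0.10, -0.09 and 0.08. The medians of the 9 lists, in the same order of comparisons, ranged from -0.41 (heat shock factors and their regulators) to 0.38 (other Hsp70 and Hsp110 proteins), from -1.01 (other Hsp70 and Hsp110 proteins) to 0.40 (nucleotide exchange factors), from -0.60 (mitochondrial chaperones and proteases) to 0.16 (nucleotide exchange factors) and from -0.93 (other Hsp70 and Hsp110 proteins) to 1.00 (mitochondrial chaperones and proteases). The most uneven lists were picked out after their values were seen. Among chaperones of the endoplasmic reticulum, 13 of 17 were lower in sham + v than in OVX + v. Among mitochondrial chaperones and proteases, 11 of 13 were lower in OVX + RAL than in OVX + v, and 11 of 13 were higher in OVX + E2 than in OVX + RAL, 2 counts that rest on the same OVX + RAL libraries. Among co-chaperones of Hsp90, 10 of 14 were lower in OVX + E2 than in OVX + v and 10 of 14 were higher in sham + v than in OVX + v, which share the OVX + v libraries. Of all genes tested, 51.0% were lower and 49.0% higher in sham + v than in OVX + v. Against OVX + v, 52.5% were lower in OVX + E2 and 51.7% in OVX + RAL, and 49.5% were higher in OVX + E2 than in OVX + RAL. These counts of lists were not tested.

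The 2 most abundant genes of each list had the following levels over the 20 libraries. *Hspa5* (1339 CPM) and *Cryab* (1321 CPM), a small heat shock protein also called alpha-B crystallin, had levels near that of *Hspa8*. *Calr* (830.2 CPM), a lectin chaperone, *Fkbp4* (377 CPM), which joins Hsp90 to steroid receptors, *Hspa4* (285 CPM) and *Hspa4l* (283 CPM), both of the Hsp110 group, and *Cct7* (277 CPM), a subunit of the cytosolic chaperonin, followed. The J-domain proteins *Dnajb6* (264 CPM) and *Dnaja1* (231 CPM) and the prefoldin subunit *Pfdn5* (218 CPM) were next. The heat shock factor binding protein *Hsbp1* had 138 CPM and the factor *Hsf2* 28.8 CPM. *Cdc37l1* (158 CPM), *St13* (141 CPM), *Hspa9* (121 CPM), *Hspb8* (119 CPM), *Bag3* (94.2 CPM) and *Dnajc19* (82.3 CPM) completed them. *Cryab* had 1276 ± 371, 1235 ± 132, 1429 ± 375 and 1345 ± 256 CPM in the 4 groups, and *Fkbp4* had 427 ± 108, 372 ± 166, 315 ± 74.0 and 396 ± 120.0 CPM (SD, n = 5).

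**Figure D4:**
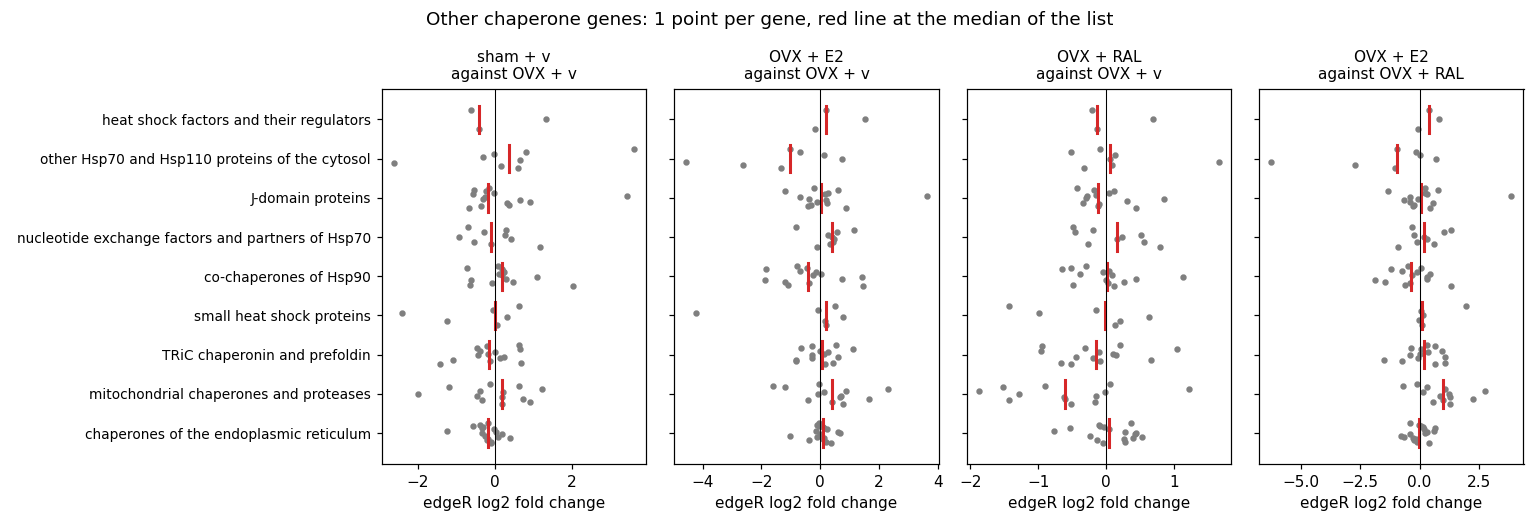
Log2 fold changes of edgeR (x axis, its own range in each panel) of the genes of 9 chaperone lists (rows) in the 4 comparisons. Each gray point is a gene and each red line the median of its list, and the points of most lists lie on both sides of 0.

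Immediate early genes, which are transcribed within minutes of a stimulus, were measured beside them as a list of 23 names, of which 22 were in the tables. None of the 16, 18, 18 and 19 genes tested in the 4 comparisons passed an adjusted p of 0.05 by edgeR, DESeq2 or limma. At an unadjusted p under 0.05, edgeR gave 1, 4, 0 and 4 of them, against 12.5%, 13.9%, 12.1% and 14.1% of all genes. Their summed level ranged from 383 to 694 CPM in sham + v, from 545 to 742 CPM in OVX + v, from 444 to 939 CPM in OVX + E2 and from 450.1 to 886 CPM in OVX + RAL. *Jund* and *Klf6* were the most abundant, with 254 and 51.9 CPM.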

How the data were processed

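RNA of utricles was sequenced by the authors from 1 ng of total RNA with a QuantSeq 3′ kit, in 4 groups of 5 libraries named by the numbers of the labels. The authors trimmed the reads, mapped them to GRCm39 and took counts per gene with CLC Genomics Workbench (version not given in the sources used here). The deposited total counts are raw counts of reads per gene. The deposited RPKM, TPM and CPM columns, a normalized signal for CPM, and the authors' comparisons (a largest group mean as signal, fold changes as score and p-values) were not used. The tables held 0 columns of other samples, and 0 of 40 replicate pairs were identical.

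CPM was computed from the library totals. Pairs of groups were compared with edgeR 4.0.16 (glmQLFit and glmQLFTest, R 4.3.3), with total counts as library sizes, for genes whose counts summed to 10 or more in the fitted libraries (13695 to 14002 genes), and any difference among 4 groups on 14870 genes, with Benjamini-Hochberg adjustment at 0.05. Standard errors are the log2 fold change over the square root of F. DESeq2 1.42.0, limma 3.58.1 on log2(CPM + 1), TMM, other filters, a common fit of the 4 groups and fits leaving out each library were alternatives. A fit without libraries 13 and 14 and the exact permutation tests, with their intervals and their share over all genes of at least 50 CPM, were added after the data were seen, as were the motif and 3′ end searches and the correlations with depth. Correlations used log2 values and 100000 permutations (20000 for depth, gene numbers and marker sums). 1 further comparison is not reported here. Starts, transcripts and promoters came from GENCODE vM39 on GRCm39; the spans in the tables equal that annotation for *Hspa1a* and *Hspa1b* only. Python 3.11.15, scipy 1.17.1, numpy 2.4.6, pandas 2.3.3 and matplotlib 3.10.9 were used. The edgeR, TMM and limma fits were run on simulated counts that gave every gene the same dispersion. The spread of the members differed by gene, so that this run cannot show how well the fits treat them. The members and lists were chosen with earlier results of these data known. All members were named, with the 2 most abundant genes of each list and the 3 genes most like each member. Total counts of 1123053 to 2081747 per library put 3 counts at 1.44 to 2.67 CPM. The reads carry no molecular identifiers, and these limits take in counting error alone.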

Additional observations from a re-analysis of the deposited data

Results flagged for a closer look

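A single library stood apart from the remaining 4, by the ratio of its gap to the range of the group (limit 0.71), in 5 of 44 groups of 5 values tested. The limit would give about 2.2 for independent values with a normal distribution. These groups share libraries and include the sum of *Hspa1a* and *Hspa1b*, and the share of all genes past the limit was not computed. No excess is therefore read from this count. In the OVX + RAL group, library 16 had 2366 CPM of *Hsp90aa1* and 5861 CPM of *Hsp90ab1*. In the OVX + v group, library 10 had 3582 CPM of *Hspb1* and 251 CPM of *Hsph1*. In the OVX + E2 group, library 13 had 1155 CPM of *Hsp90aa1*, below the other 4.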

How the results depend on the processing

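No paired analysis was possible because the groups share no library number. The members past the threshold stayed at 0 in every alternative except 3, each with *Hspb1* alone: without library 10 for OVX + E2 against OVX + v, and without library 10 or 11 for any difference (0 to 1 member over the fits that leave out 1 library). For all genes, 2 passed in sham + v against OVX + v, with 12 by DESeq2, 4 by limma, 1 with TMM, 0 with the default filter of edgeR and 1 to 10 without single libraries. For OVX + E2 against OVX + v, 8 passed, with 38 by DESeq2, 1 with the default filter and 6 to 17 without single libraries. For OVX + RAL against OVX + v, 4 passed, with 0 under the default filter and 3 to 11 without single libraries. For OVX + E2 against OVX + RAL, 10 passed, with 42 by DESeq2, 16 with all 4 groups in 1 fit, 0 with the default filter and 8 to 16 without single libraries. For any difference 21 passed, with 2 by DESeq2, 1 with the default filter and 0 by limma. The causes of these shifts were not tested.

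No member was past the threshold in the main test, so that the changes of sign concern log2 fold changes that were not called. For sham + v against OVX + v, *Hspa1a* turned to 0.84 by limma. Without single libraries, *Hspa1a* ranged from -0.47 to 0.56, the sum of *Hspa1a* and *Hspa1b* from -0.73 to 0.068, *Hspb1* from -0.43 to 0.30, *Dnajb1* from -1.03 to 0.12 and *Hspd1* from -0.22 to 0.11. For OVX + E2 against OVX + v, *Hspb1* was -0.19 without libraries 13 and 14 and ranged from -0.0202 to 0.85. For OVX + RAL against OVX + v, *Hsp90ab1* was 0.0061 with TMM and *Hspe1* -0.42 by limma. Without single libraries, *Hsp90aa1* ranged from -0.12 to 0.096, *Hsp90ab1* from -0.24 to 0.036, *Dnajb1* from -0.81 to 0.21, *Hsph1* from -0.66 to 0.088 and *Hspe1* from -0.71 to 0.32. For OVX + E2 against OVX + RAL, *Hspb1* was -0.0337 with TMM, -0.12 by limma and -0.41 without libraries 13 and 14. Without single libraries, *Hspb1* ranged from -0.24 to 0.35, *Hsp90ab1* from -0.20 to 0.079, *Dnajb1* from -0.61 to 0.042 and *Hspe1* from -0.99 to 0.11. The remaining values, 633 of single members and 315 of counts, summed genes and other summaries, kept their direction and side of the threshold, or stayed within 1.5 times for counts. Intervals of the members with few counts spanned several-fold changes, and depth was lowest in OVX + E2.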
